A study of Homo sapiens with 12 samples.

Results

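The genes described here encode the nuclear subunits of the oxidative phosphorylation system, together with assembly factors that carry the same name stems. They are the 91 genes, of 18404 named by 1 probe set symbol on the array, whose symbol starts with NDUFA, NDUFB, NDUFC, NDUFS, NDUFV, SDH, UQCR, COX4, COX5, COX6, COX7, COX8 or ATP5, plus CYC1 and CYCS. Pseudogenes and non-coding RNAs were left out, and the probe set with the highest mean over the 12 arrays stood for each gene. Complex I gave 41 members, of which 6 were core subunits, 28 supernumerary subunits and 7 assembly factors. Complex II gave 6, with 3 subunits and 3 assembly factors, and complex III gave 8. Cytochrome c was represented by CYCS alone. Complex IV gave 17, with 10 ubiquitous subunits, 6 isoforms restricted to certain tissues and the supercomplex factor COX7A2L, and complex V gave 18.

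In the inner mitochondrial membrane, complexes I and II pass electrons from NADH and succinate to ubiquinone, complex III passes them on to cytochrome c, and complex IV delivers them to oxygen. Complexes I, III and IV pump protons, and complex V, the ATP synthase, lets the protons flow back and makes ATP. Complex II is encoded by nuclear genes alone, whereas the other complexes combine nuclear subunits with subunits encoded by mitochondrial DNA, of which 0 of 13 were named by a probe set here.

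The samples were 12 one-colour whole-transcript arrays of U-HO1 and L-1236, 2 established cell lines from Hodgkin lymphoma. Cells were transduced either with an shRNA directed at the transcription factor GATA-3 or with a control shRNA without function, left in culture for 3 days and sorted by their GFP signal, after which the RNA of 25000 sorted cells was amplified and labelled. The groups were U-HO1 labelled knockdown, U-HO1 labelled control, L-1236 labelled knockdown and L-1236 labelled control, with 3 arrays each. U-HO1 was kept in IMDM and L-1236 in RPMI 1640, so line and medium cannot be told apart in any difference between the lines. The submitters call the samples independent without saying how they were separated, so a p-value here reflects how far these arrays spread and nothing beyond that. In bulk RNA of this kind, fewer cells of a type and less RNA per cell cannot be told apart.

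GATA3 itself did not separate the labels. It read 11.07, 10.12 and 10.22 on U-HO1 arrays labelled knockdown and 11.24, 10.90 and 10.24 on those labelled control (log2 level, difference -0.32, exact two-sided permutation p = 0.5). In L-1236 it read 10.80, 10.00 and 10.24 on arrays labelled knockdown and 10.29, 10.69 and 9.95 on those labelled control (difference 0.03, exact two-sided permutation p = 0.9, where 3 against 3 arrays allow 0.1 at the lowest). The arrays are therefore called by their labels throughout. Of the 11 markers of Hodgkin and Reed-Sternberg cells, 4 were called higher and 5 lower in U-HO1 on arrays labelled control, and their mean ran from 9.13 to 9.33 over the U-HO1 arrays and from 9.41 to 9.58 over the L-1236 arrays. The 5 called lower were CCL22, PAX5, CD40, CD274 and BATF3, with differences of -2.05, -1.97, -1.96, -1.79 and -0.75. Those called higher were TRAF1, FSCN1, CCL17 and TNFRSF8, with 2.93, 1.39, 0.76 and 0.68. TNFRSF8, which encodes CD30, averaged 10.27 ± 0.21 in U-HO1 and 9.59 ± 0.20 in L-1236 (arrays labelled control, SD, n = 3 each). Of those not called, the transcription factor IRF4 averaged 11.22 ± 0.28 in U-HO1 and 11.40 ± 0.09 in L-1236. The T-cell marker CD3D (5.96 ± 0.08 in both lines), the B-cell marker MS4A1 (5.81 ± 0.12 in U-HO1 and 5.76 ± 0.11 in L-1236) and the monocyte marker LYZ (5.66 ± 0.06 in U-HO1 and 5.61 ± 0.05 in L-1236) all lay below 7.04, the median over all probe sets. Over the 12 arrays the mean of the 4 B-cell markers measured ran from 6.32 to 6.46 in U-HO1 and from 6.98 to 7.13 in L-1236, with CD22 alone called, and that of the 6 T-cell markers from 6.24 to 6.45 in U-HO1 and from 6.57 to 6.68 in L-1236, with CD4 alone called. CD22 and CD4 were lower in U-HO1 on arrays labelled control, with differences of -2.54 and -1.70. The part of all these markers in the differences between the lines was not tested.

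Sequence upstream of the members was examined for motifs long linked to respiratory chain genes. A window of 250 bases before to 50 bases after the start site (RefSeq, GRCh38.p14) was found for 77 of the 91 members, against 27305 genes in the table. The NRF1 core GCATGCGC stood on either strand in 17 of the 77 members (22.1%) and in 3.68% of all windows. The ETS core CCGGAAG, bound by factors such as GABP, stood in 23 members (29.9%) and in 12.2% of all windows, and the YY1 core AAGATGGCG in 8 members (10.4%) and in 2.14% of all windows. Of the 25 members with a window that were called higher in U-HO1 than in L-1236 on arrays labelled control, 5 held the NRF1 core, 8 the ETS core and 1 the YY1 core. Of the other 52 members with a window, 12 held the NRF1 core, 15 the ETS core and 7 the YY1 core. The motifs were thus spread over members called higher in U-HO1 and members not called higher. The latter include ATP5MG, which was called lower. A match of letters describes the window only. The windows of 5 members called between the lines are shown with these cores in capitals, from the 5′ end in the direction of transcription. Each of the 5 holds at least 1 core, so they do not stand for the called members as a set. They are NDUFAF4 (chr6:96897842-96898141, minus strand), COX8A (chr11:63974370-63974669, plus strand), NDUFA6 (chr22:42090723-42091022, minus strand), ATP5F1C (chr10:7787927-7788226, plus strand) and ATP5MG (chr11:118401356-118401655, plus strand). The first 4 belong to members higher in U-HO1 and the last to a member lower in U-HO1.
NDUFAF4: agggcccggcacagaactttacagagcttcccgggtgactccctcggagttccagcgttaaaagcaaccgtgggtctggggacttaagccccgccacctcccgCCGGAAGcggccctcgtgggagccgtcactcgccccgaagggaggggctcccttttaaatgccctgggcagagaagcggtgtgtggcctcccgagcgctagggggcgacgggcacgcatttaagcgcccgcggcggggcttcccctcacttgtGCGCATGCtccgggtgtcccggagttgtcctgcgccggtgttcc
COX8A: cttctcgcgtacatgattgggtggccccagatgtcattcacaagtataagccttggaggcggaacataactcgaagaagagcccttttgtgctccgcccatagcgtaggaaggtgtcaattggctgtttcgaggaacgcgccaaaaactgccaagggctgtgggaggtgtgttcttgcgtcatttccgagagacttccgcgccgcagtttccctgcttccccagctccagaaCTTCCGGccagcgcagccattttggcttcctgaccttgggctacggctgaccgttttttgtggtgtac
NDUFA6: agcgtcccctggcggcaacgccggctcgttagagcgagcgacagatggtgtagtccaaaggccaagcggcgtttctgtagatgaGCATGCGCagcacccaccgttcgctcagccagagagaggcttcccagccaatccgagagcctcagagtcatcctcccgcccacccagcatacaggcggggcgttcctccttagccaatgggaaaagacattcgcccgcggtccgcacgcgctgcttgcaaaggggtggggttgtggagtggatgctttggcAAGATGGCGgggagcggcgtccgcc
ATP5F1C: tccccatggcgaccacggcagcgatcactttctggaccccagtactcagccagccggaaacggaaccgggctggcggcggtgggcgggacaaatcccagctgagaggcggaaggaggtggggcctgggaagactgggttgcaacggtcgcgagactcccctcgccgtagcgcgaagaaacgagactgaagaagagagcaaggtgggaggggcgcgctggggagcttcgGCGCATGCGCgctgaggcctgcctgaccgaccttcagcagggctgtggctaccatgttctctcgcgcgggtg
ATP5MG: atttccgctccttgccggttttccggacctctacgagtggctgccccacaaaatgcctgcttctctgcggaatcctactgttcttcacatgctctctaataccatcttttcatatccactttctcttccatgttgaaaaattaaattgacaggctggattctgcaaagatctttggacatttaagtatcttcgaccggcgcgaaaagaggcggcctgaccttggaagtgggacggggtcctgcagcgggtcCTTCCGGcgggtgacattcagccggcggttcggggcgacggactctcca
NDUFAF4 held an ETS and an NRF1 core, COX8A and ATP5MG an ETS core each, and NDUFA6 an NRF1 and a YY1 core. ATP5F1C held the NRF1 core on both strands in overlap, which gives its capitals their 10 letters. The ETS core therefore occurred both in a member that was higher and in a member that was lower in U-HO1.

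The first comparison asked how the respiratory chain genes differed between the lines on the 6 arrays labelled control. U-HO1 had higher levels than L-1236 of 29 members and lower levels of 3. Among them were subunits of complexes I, IV and V and, in complex III, CYC1 alone. The furthest apart was NDUFAF4, a complex I assembly factor, 3.21-fold higher in U-HO1. Next came NDUFA12, a supernumerary subunit of complex I, at 1.98-fold, and CYC1, the cytochrome c1 of complex III, at 1.84-fold. The 3 members lower in U-HO1 were ATP5MG, a membrane subunit of the ATP synthase, its near-copy ATP5MGL and the complex I assembly factor NDUFAF7. A member counts as called where limma's adjusted p over all 32321 probe sets was under 0.05. Over all probe sets 13.3% were called higher and 12.5% lower in U-HO1, against 31.9% and 3.30% of the members. To set the members beside brighter probe sets, the fit was repeated on the 16161 probe sets at or above the median level. There 22.8% of probe sets were higher and 19.1% lower, and of the 82 members among them 32 were higher and 2 lower. The median member lay at percentile 81.5 of all probe sets by mean level, so the match in brightness is only rough. The median difference over the members was 0.14 on the log2 scale, against 0.00 over all probe sets, and 1 member, NDUFAF4, passed 2-fold in the higher direction (2.69% of all probe sets did).

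**Figure D1:**
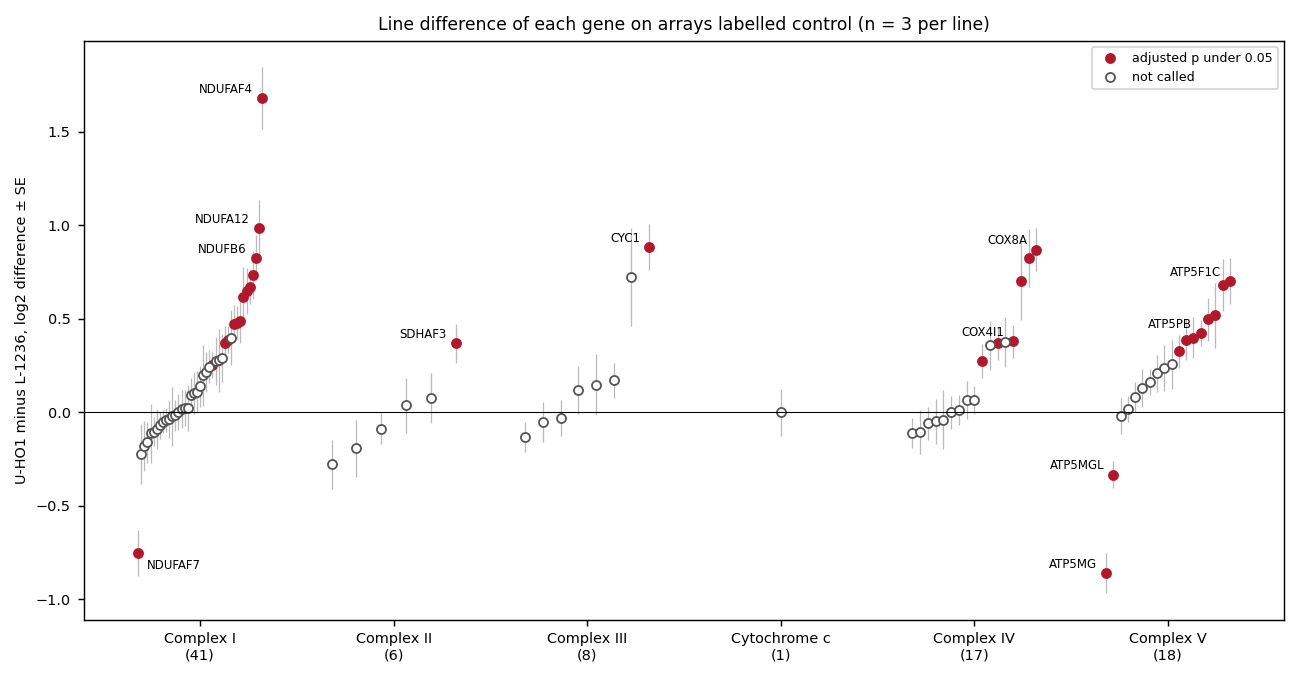
Each point is 1 of the 91 genes, placed by complex (number of genes in brackets) and sorted within it, with the log2 difference U-HO1 minus L-1236 on the arrays labelled control on the vertical axis and its standard error as a bar. Filled points passed an adjusted p of 0.05; NDUFAF4 lies at 1.68, and ATP5MG, NDUFAF7 and ATP5MGL are the filled points below 0.

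Complex I had 13 members higher and 1 lower in U-HO1 of 41, with a median difference of 0.14. These are 31.7% and 2.44%, against 13.3% and 12.5% of all probe sets. NDUFAF4 read 10.11, 9.92 and 9.73 in U-HO1 and 7.90, 8.64 and 8.18 in L-1236, a difference of 1.68 (SE 0.17, adjusted p = 1.2e-05). All 3 U-HO1 arrays lay above all 3 L-1236 arrays by more than either group's own spread. NDUFAF3, which works beside NDUFAF4 in assembly, was higher too, at 9.30 ± 0.21 in U-HO1 and 8.68 ± 0.32 in L-1236 (difference 0.62, adjusted p = 0.0116). NDUFAF7, a methyltransferase needed for the assembly of complex I, went the other way. It read 8.13, 8.10 and 8.46 in U-HO1 and 8.97, 8.96 and 9.02 in L-1236 (difference -0.75, SE 0.12, adjusted p = 0.000663), with no overlap. The assembly factors of 1 complex were thus not shifted together.

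Among the core subunits of complex I, which carry the flavin and the iron-sulphur clusters, 3 of 6 were higher in U-HO1. That is 50%, against 13.3% of all probe sets. NDUFV1, the subunit that binds NADH, averaged 9.98 ± 0.16 in U-HO1 and 9.50 ± 0.08 in L-1236 (difference 0.47, adjusted p = 0.00339). NDUFS1 averaged 9.59 ± 0.12 in U-HO1 and 9.10 ± 0.11 in L-1236 (difference 0.49, adjusted p = 0.00802). NDUFS8 averaged 8.77 ± 0.03 in U-HO1 and 8.52 ± 0.05 in L-1236 (difference 0.25, adjusted p = 0.0186). The other core subunits, NDUFV2, NDUFS3 and NDUFS7, had differences of 0.29, -0.22 and 0.09 and were not called.

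Of the 28 supernumerary subunits, which surround the core of complex I, 8 were higher (28.6%) and 0 lower in U-HO1 at the adjusted threshold. These compare with 13.3% and 12.5% of all probe sets. At limma's unadjusted p under 0.05 again 0 were lower, where 17.6% of all probe sets were higher and 16.7% lower. NDUFA12 read 10.70, 10.58 and 10.83 in U-HO1 and 9.36, 10.04 and 9.75 in L-1236 (difference 0.99, SE 0.15, adjusted p = 0.00038). NDUFB6, a subunit of the membrane arm, read 8.29, 8.13 and 8.39 in U-HO1 and 7.51, 7.50 and 7.33 in L-1236 (difference 0.83, adjusted p = 0.000268). NDUFB10, another subunit of that arm, read 9.03, 9.21 and 9.36 in U-HO1 and 8.51, 8.54 and 8.53 in L-1236 (difference 0.67, adjusted p = 0.00016). The U-HO1 arrays were above the L-1236 arrays for all 3 genes, and the L-1236 arrays differed most among themselves for NDUFA12. The remaining 5 were NDUFA6, NDUFA8, NDUFA10, NDUFS6 and NDUFB9, with differences of 0.74, 0.65, 0.48, 0.39 and 0.37.

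Complex II had 1 member higher and 0 lower of 6, and its median was -0.03. The 1 member is 16.7%, near the 13.3% of all probe sets called higher. The called member was SDHAF3, an assembly factor that helps to mature the iron-sulphur subunit, at 7.04, 7.20 and 7.15 in U-HO1 and 6.81, 6.87 and 6.61 in L-1236 (difference 0.37, SE 0.10, adjusted p = 0.0205). That call was lost when any of 3 single arrays was left out: the difference was 0.29 without L-1236 control replicate 3, 0.33 without U-HO1 control replicate 2 and 0.36 without U-HO1 control replicate 3. The 3 subunits measured were not called, with 0.08 for the flavoprotein SDHA and -0.28 and -0.19 for the membrane anchors SDHC and SDHD. A second probe set of each anchor gave -0.59 for SDHC (adjusted p = 0.0614) and -0.31 for SDHD (adjusted p = 0.0521). For these 2 genes, and for NDUFV2 and ATP5MK, 0 of the 10 neighbouring probe set numbers around the brightest probe set named a gene of the same chromosome, whereas all 10 did around the other one.

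Complex III had 1 member higher of 8, CYC1, and a median of 0.13. That is 12.5% of its members, no more than the 13.3% of all probe sets called higher. CYC1, which hands electrons to cytochrome c, read 10.68, 10.51 and 10.82 in U-HO1 and 9.70, 10.04 and 9.63 in L-1236 (difference 0.88, SE 0.12, adjusted p = 0.000206). UQCR10, a small subunit beside cytochrome c1, had a difference of 0.72 with an SE of 0.26 and was not called (adjusted p = 0.0655). The remaining 6 lay between -0.13 for UQCRQ and 0.17 for UQCRC2. CYCS, the carrier that CYC1 serves, averaged 8.79 ± 0.08 in U-HO1 and 8.79 ± 0.26 in L-1236 and was not called (SE 0.12).

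Complex IV had 6 members higher and 0 lower of 17, with a median difference of 0.07. At an unadjusted p under 0.05 limma also gave 0 lower. The 6 are 35.3%, against 13.3% of all probe sets. COX8A, the ubiquitous form of a small structural subunit, read 10.55, 10.35 and 10.57 in U-HO1 and 9.42, 9.86 and 9.58 in L-1236 (difference 0.87, SE 0.11, adjusted p = 0.000125). COX6C read 10.18, 10.07 and 10.42 in U-HO1 and 9.66, 9.10 and 9.43 in L-1236 (difference 0.83, SE 0.15, adjusted p = 0.00157). COX4I1, the ubiquitous form of the regulatory subunit IV, read 9.05, 8.85 and 9.02 in U-HO1 and 8.69, 8.60 and 8.48 in L-1236 (difference 0.38, adjusted p = 0.00711). For each of the 3 genes the lines did not overlap. COX7B, COX7A2 and COX7A2L made up the called members, with 0.70, 0.37 and 0.27.

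The subunits of complex IV were then read by how widely they are expressed. The 10 ubiquitous subunits had a median difference of 0.37 with 5 called higher (50%). The 6 tissue-restricted isoforms had a median of -0.02 with 0 called, where limma also gave 0 at an unadjusted p under 0.05. Over all probe sets 13.3% were called higher and 12.5% lower. With 6 isoforms, 0 called cannot be told apart from these shares. COX4I2, the partner of COX4I1 known from lung, averaged 6.64 ± 0.23 in U-HO1 and 6.68 ± 0.12 in L-1236. COX8C, the testis partner of COX8A, averaged 6.12 ± 0.12 in U-HO1 and 6.23 ± 0.05 in L-1236, and COX7A1, the heart and muscle partner of COX7A2, averaged 6.38 ± 0.07 in U-HO1 and 6.38 ± 0.15 in L-1236. The partners COX6A1 and COX6A2 had differences of -0.04 and -0.06, COX6B1 and COX6B2 0.07 and 0.01, and COX7B2 0.07. Of the 6 isoforms, 5 lay below the median over all probe sets, and COX6A2 lay above it. COXFA4, the current symbol of the gene long called NDUFA4, falls outside the name stems and averaged 7.61 ± 0.02 in U-HO1 and 7.86 ± 0.16 in L-1236 (difference -0.24, adjusted p = 0.0597).

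Complex V had 8 members higher and 2 lower of 18, with a median of 0.25. These are 44.4% and 11.1%, against 13.3% and 12.5% of all probe sets. In its catalytic F1 head 3 of 4 subunits were higher (75%, against 13.3% of all probe sets). ATP5F1C, the gamma subunit that forms the rotor shaft, read 11.17, 11.00 and 11.14 in U-HO1 and 10.39, 10.53 and 10.29 in L-1236 (difference 0.70, SE 0.12, adjusted p = 0.00107). ATP5F1A, the alpha subunit, and ATP5F1B, the catalytic beta subunit, had differences of 0.50 and 0.33 (adjusted p = 0.00742 and 0.0162). ATP5F1D, the delta subunit, had 0.26 and was not called.

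The stalk and membrane subunits of complex V moved both ways. ATP5PB, subunit b of the peripheral stalk, read 7.51, 7.34 and 7.46 in U-HO1 and 7.03, 7.04 and 6.97 in L-1236 (difference 0.42, SE 0.07, adjusted p = 0.000572). ATP5MG, subunit g at the contact between ATP synthase dimers, read 9.72, 9.78 and 9.76 in U-HO1 and 10.81, 10.62 and 10.42 in L-1236 (difference -0.86, SE 0.11, adjusted p = 8.2e-05). ATP5MGL, a copy of ATP5MG whose probe set may also take up ATP5MG transcripts and is uncertain for that reason, averaged 6.48 ± 0.09 in U-HO1 and 6.81 ± 0.07 in L-1236 (difference -0.33, adjusted p = 0.00448). ATP5MG thus stood apart from its neighbours in the membrane part, where ATP5MK, a small subunit, had 0.68 (0.33 with its second probe set, adjusted p = 0.017) and ATP5MC1 had 0.52 (adjusted p = 0.0456). The genes ATP5MC1, ATP5MC2 and ATP5MC3 encode the same mature subunit c of the rotor ring, and the other two had 0.02 and 0.08 and were not called. ATP5PO and ATP5PD of the peripheral stalk had 0.40 and 0.39, and ATP5IF1, the inhibitor of the enzyme running in reverse, had 0.13 and was not called.

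Of the 32 calls, 18 were kept in each of 20 alternative settings that could fit them, and 14 were lost in at least 1. The 20 leave out the mean of all probe sets of a gene and the submitters' criteria. Those criteria ask for a false discovery rate up to 25% and a change of 1.5-fold or more. By them 14 members were higher and 2 lower. Without a single array, 9 were lost in at least 1 of the 12 cases. The ranges that follow run over all 12 cases, those that kept the call included. ATP5MC1 was lost in 9 of the 12, and its differences ran from 0.40 to 0.74 with limma's adjusted p up to 0.172. COX7A2L was lost in 8, and its differences ran from 0.20 to 0.32 with adjusted p up to 0.175. COX7B was lost without control replicates 2 or 3 of either line (0.52 to 0.88, up to 0.112), and NDUFS8 without control replicates 1 or 2 of U-HO1 or 1 or 3 of L-1236 (0.23 to 0.28, up to 0.0663). ATP5PD was lost without U-HO1 control replicate 3 or L-1236 control replicates 1 or 3 (0.33 to 0.48, up to 0.0781). ATP5PO was lost without U-HO1 control replicate 2 or L-1236 control replicate 3 (0.30 to 0.48, up to 0.075), and ATP5F1B without U-HO1 control replicate 1 or L-1236 control replicate 3 (0.27 to 0.38, up to 0.0725). NDUFAF3 was lost without U-HO1 control replicate 3 alone (0.46 to 0.77, up to 0.0517), and SDHAF3 as given above. All these differences kept their direction.

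**Figure D2:**
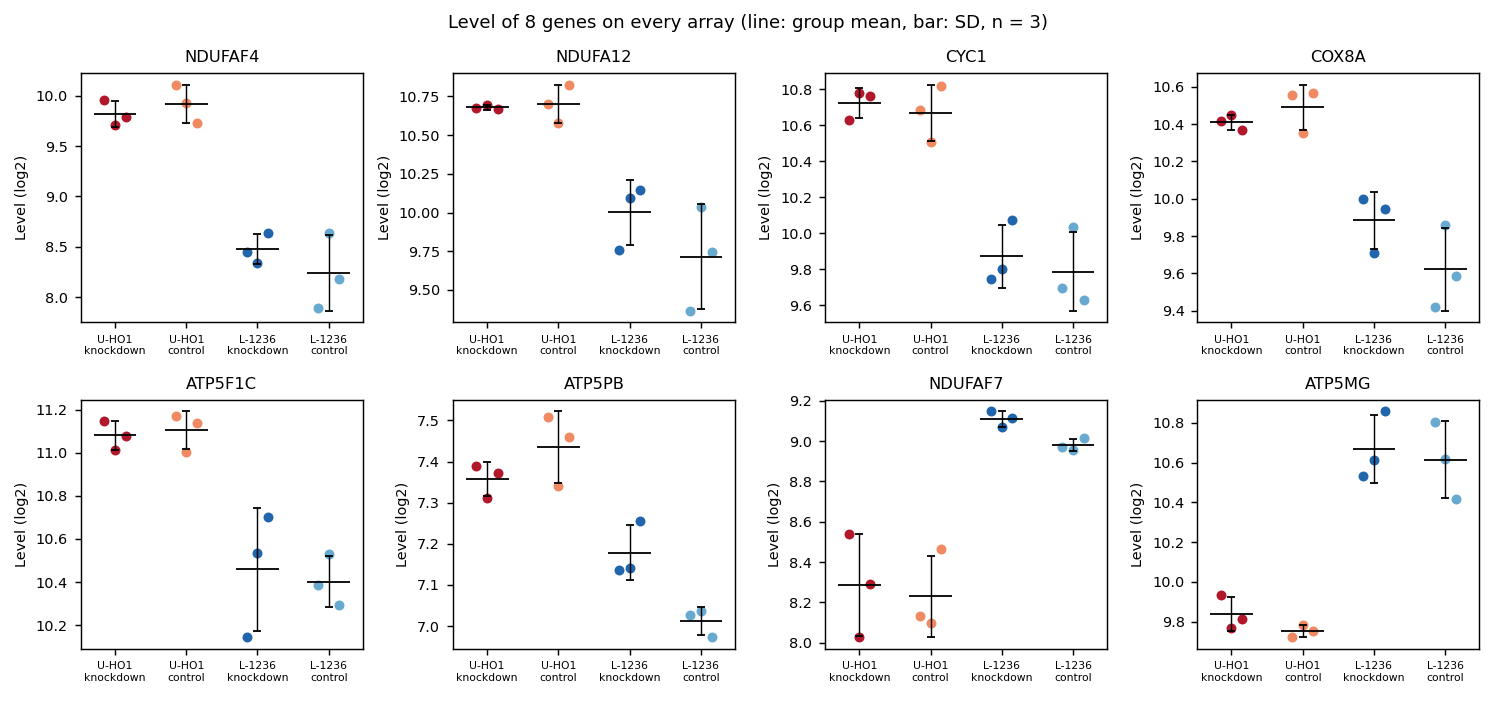
Levels of 8 genes (vertical axis, log2, a separate range in each panel) on every array, with U-HO1 labelled knockdown and control to the left of L-1236 labelled knockdown and control, group means as lines and SDs as bars (n = 3). In the 6 panels from NDUFAF4 to ATP5PB each U-HO1 point lies above each L-1236 point, and in the panels of NDUFAF7 and ATP5MG below.

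The same difference of the lines was then read on the 6 arrays labelled knockdown. Their levels do not enter the first difference, but both differences take their standard errors from one estimate of spread over all 12 arrays. There 20 members were higher and 5 lower in U-HO1, against 12.2% and 12.5% of all probe sets. Of the 32 members called on arrays labelled control, 21 were called again (65.6%), all in the same direction, and they made up 84% of the 25 called on arrays labelled knockdown. NDUFAF4 read 9.96, 9.71 and 9.79 in U-HO1 and 8.45, 8.34 and 8.64 in L-1236 (difference 1.34, adjusted p = 7.27e-05). CYC1 read 10.63, 10.78 and 10.76 in U-HO1 and 9.75, 9.80 and 10.07 in L-1236 (difference 0.85, adjusted p = 0.000273). For both genes the lines again did not overlap. COX8A had 0.53 (adjusted p = 0.00457), ATP5F1C 0.62 (adjusted p = 0.00253), ATP5MG -0.83 (adjusted p = 0.000111) and NDUFAF7 -0.83 (adjusted p = 0.000329). ATP5PB had 0.18 and was not called here (adjusted p = 0.079). Across the 91 genes the 2 sets of differences had a Pearson r of 0.94, a description over genes that share the lines, the media and the estimate of spread.

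By complex, the arrays labelled knockdown gave 10 higher and 2 lower in complex I, 1 and 1 in complex II, 1 and 0 in complex III, 3 and 1 in complex IV, and 5 and 1 in complex V. In this order the shares higher were 24.4%, 16.7%, 12.5%, 17.6% and 27.8%, against 12.2% of all probe sets. The shares lower were 4.88%, 16.7%, 0%, 5.88% and 5.56%, against 12.5%. The members called lower here and not on arrays labelled control were NDUFA3, a supernumerary subunit of complex I (-0.44, adjusted p = 0.00107), SDHC (-0.49, adjusted p = 0.0174) and COX7C of complex IV (-0.41, adjusted p = 0.0249). SDHC read 11.43, 10.99 and 11.19 in U-HO1 and 11.56, 11.63 and 11.87 in L-1236, and its second probe set gave -0.79 (adjusted p = 0.016). The 1 member called higher here and not on arrays labelled control was ATP5ME, subunit e of the ATP synthase (0.24, adjusted p = 0.02). For no member was the change of the line difference between the sets itself called by limma, and 2 had an unadjusted p under 0.05 (2.46% of all probe sets did). When the 4 arrays whose GATA3 went against their label were left out (knockdown replicate 1 and control replicate 3 of both lines), 17 members were higher on arrays labelled control and 12 on those labelled knockdown. Of all 32321 probe sets, 2833 and 2579 were higher in that fit.

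**Figure D3:**
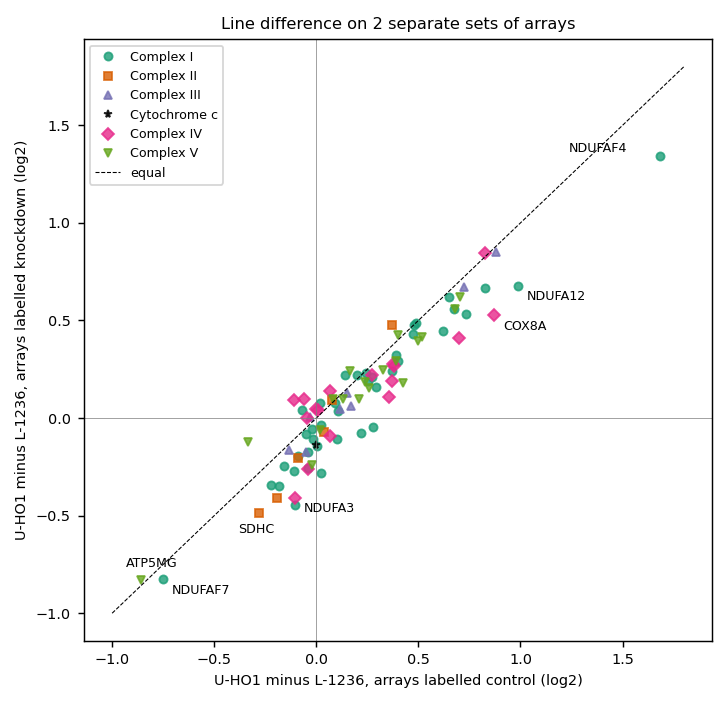
Each point is 1 of the 91 genes, with the log2 difference U-HO1 minus L-1236 on arrays labelled control on the horizontal axis and on arrays labelled knockdown on the vertical axis, and the symbol shows the complex. The points lie near the dashed line of equal values, with NDUFAF4 at 1.68 and 1.34 at the upper end and ATP5MG at -0.86 and -0.83 at the lower end.

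Averaged over its members on each array, complex I read 8.88, 8.82 and 8.89 on U-HO1 arrays labelled knockdown, 8.89, 8.83 and 8.93 on U-HO1 arrays labelled control, 8.64, 8.77 and 8.86 on L-1236 arrays labelled knockdown and 8.64, 8.69 and 8.65 on L-1236 arrays labelled control. The lines did not overlap on arrays labelled control, and on those labelled knockdown the highest L-1236 array reached the range of U-HO1. Complex IV read 8.65, 8.64 and 8.60 on U-HO1 arrays labelled knockdown, 8.63, 8.62 and 8.65 on U-HO1 arrays labelled control, 8.44, 8.49 and 8.52 on L-1236 arrays labelled knockdown and 8.45, 8.36 and 8.39 on L-1236 arrays labelled control, so the lines were apart in both sets. Complex V was between 9.40 and 9.45 on the 6 U-HO1 arrays and between 9.10 and 9.41 on the 6 L-1236 arrays. Complex II was between 8.73 and 9.01 in U-HO1 and between 8.87 and 9.06 in L-1236, with wide overlap. These averages follow the members that the probe sets cover and are no measure of the amount of a complex.

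**Figure D4:**
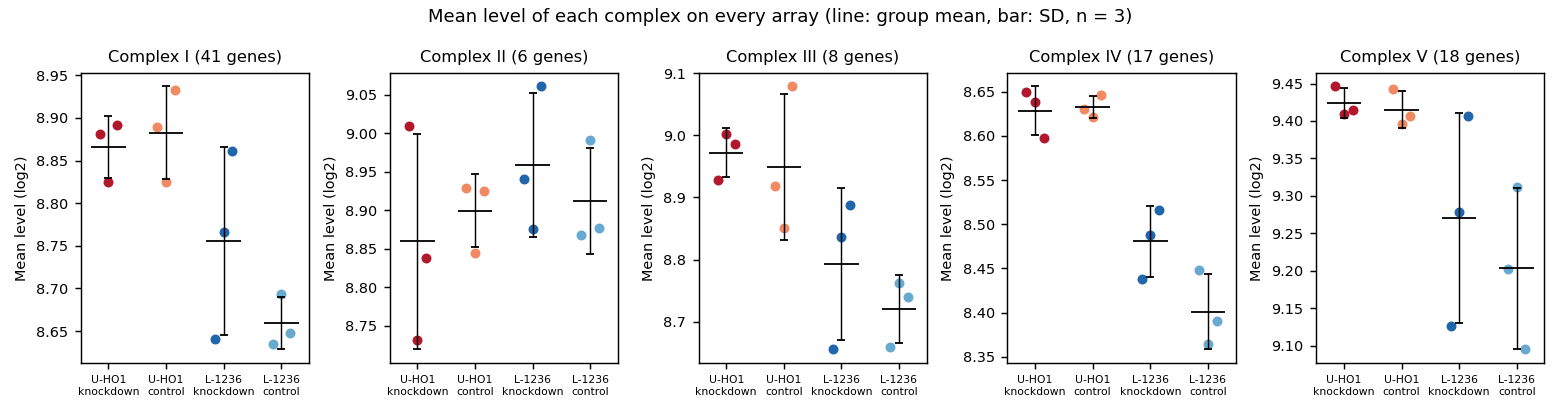
Mean log2 level (vertical axis, a separate range in each panel) over the genes of each complex on every array, with U-HO1 labelled knockdown and control to the left of L-1236 labelled knockdown and control, group means as lines and SDs as bars (n = 3). Complexes I, III, IV and V averaged higher in U-HO1, and the complex II panel shows overlapping lines.

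The comparison the study set out, arrays labelled knockdown against arrays labelled control within each line, gave no called member. In U-HO1 limma called 0 of 91 members (0.0% of all probe sets) and 0 had an unadjusted p under 0.05 (1.05% of all probe sets did). The differences ran from -0.18 for the complex II assembly factor SDHAF2 to 0.16 for COX8C, 41 were positive and 50 negative, and the median was -0.01, against 0.00 over all probe sets. The 95% intervals of the 91 differences lay between -0.50 and 0.71 on the log2 scale. For CYC1 the interval ran from -0.22 to 0.32, for COX8A from -0.33 to 0.17 and for ATP5PB from -0.23 to 0.07. NDUFAF1, an assembly factor of complex I, had -0.15, COX6A2 had 0.10, and NDUFB1, a supernumerary subunit, and COX7B2 had 0.07 each.

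In L-1236 limma again called 0 of 91 (0.0% of all probe sets), and 4 members had an unadjusted p under 0.05. Of these NDUFA3 read 9.98, 9.84 and 9.90 on arrays labelled knockdown and 9.69, 9.58 and 9.79 on those labelled control (difference 0.22, SE 0.08, unadjusted p = 0.0168, adjusted p = 0.925). ATP5PB read 7.14, 7.14 and 7.26 on arrays labelled knockdown and 7.03, 7.04 and 6.97 on those labelled control (difference 0.17, unadjusted p = 0.0315, adjusted p = 0.925). The labels did not overlap for either gene. COX8A read 10.00, 9.71 and 9.95 on arrays labelled knockdown and 9.42, 9.86 and 9.58 on those labelled control (difference 0.26, unadjusted p = 0.0406, adjusted p = 0.925), with overlap, and leaving out control replicate 1 gave 0.16 where leaving out control replicate 2 gave 0.38. ATP5MGL had the negative difference among the 4 (-0.17, unadjusted p = 0.0369, adjusted p = 0.925). The 3 positive members compare with 1.4% of all probe sets and the negative one with 3.37%. The labels were apart in 6 members, 5 above and 1 below, against 3.24% and 7.45% of all probe sets. NDUFB11 had 0.19, and UQCRH, ATP5ME and COX6A2 had -0.09, -0.06 and -0.06. These 4 values rested on single arrays: without one, NDUFB11 ran from 0.082 (knockdown replicate 3) to 0.29 (knockdown replicate 1) and UQCRH from -0.17 (knockdown replicate 3) to -0.016 (control replicate 1). ATP5ME ran from -0.10 (control replicate 3) to -0.013 (knockdown replicate 1) and COX6A2 from -0.10 (knockdown replicate 2) to -0.00074 (control replicate 1).

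Most differences in L-1236 were small and positive. The differences of 73 of the 91 members were above 0, with a median of 0.09. Over all probe sets 46.7% were above 0 and the median was -0.01, and over the 16161 at or above the median level 61.4% were above 0 and the median was 0.04. By complex the medians were 0.10 for complex I, 0.05 for complex II, 0.10 for complex III, 0.05 for complex IV and 0.07 for complex V. Single arrays moved each of them: without L-1236 knockdown replicate 1 they were 0.17, 0.11, 0.16, 0.12 and 0.18, in the same order. Without knockdown replicate 3 the medians were 0.029 for complex I, 0.0039 for complex II and 0.0051 for complex III. Without control replicate 3 that of complex IV was 0.0046 and that of complex V turned to -0.0077. The members' mean read 8.72, 8.83 and 8.92 on L-1236 arrays labelled knockdown and 8.73, 8.78 and 8.71 on those labelled control, so the labels overlapped. On the same arrays the upper quartile of all probe sets read 8.40, 8.45 and 8.50 on those labelled knockdown and 8.35, 8.43 and 8.43 on those labelled control, and the array highest for the members was highest there too. After quantile normalization 63 members were positive and the median was 0.02. Of all probe sets 53.5% were positive then, with a median of 0.0079. With each array centred on its median 86 members were positive and the median was 0.15. Of all probe sets 69.5% were positive in that setting, with a median of 0.05. The mean of 21 interferon-response genes read 9.16, 9.91 and 8.52 on L-1236 arrays labelled knockdown and 8.01, 7.80 and 10.07 on those labelled control. The part of either measure in the members' shift was not tested.

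The difference between the effects in the lines was not called by limma for any member. At an unadjusted p under 0.05 it was negative for 2, NDUFA3 (-0.34, unadjusted p = 0.00962, adjusted p = 1) and ATP5PB (-0.24, unadjusted p = 0.0264, adjusted p = 1), and it was positive for 0. For COX8A it was -0.34 (unadjusted p = 0.0557).

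**Figure D5:**
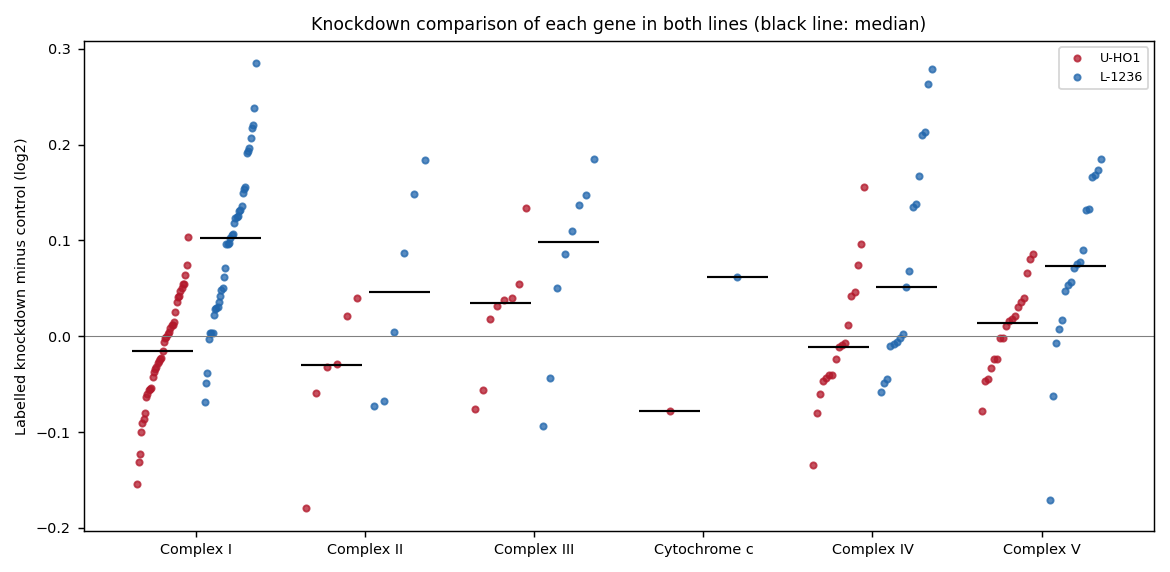
Each point is 1 of the 91 genes, sorted within its complex, with the log2 difference of arrays labelled knockdown minus control on the vertical axis, U-HO1 to the left and L-1236 to the right of each pair, and the median of each set as a black line. No point passed limma's adjusted threshold; the U-HO1 points centre near 0 and 73 of the 91 L-1236 points lie above 0.

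Genes that work with the respiratory chain but lie outside the name stems were read in the same fit on arrays labelled control. Over all probe sets 13.3% were higher and 12.5% lower in U-HO1 there. Of 33 measured assembly factors, 11 were higher and 4 lower in U-HO1 (33.3% and 12.1%), so the share lower was near that of all probe sets. SCO1, a copper chaperone of complex IV, averaged 9.32 ± 0.15 in U-HO1 and 8.39 ± 0.07 in L-1236 (difference 0.93, adjusted p = 4.1e-06). COX11, another copper chaperone of complex IV, averaged 8.71 ± 0.11 in U-HO1 and 9.77 ± 0.12 in L-1236 (difference -1.06, adjusted p = 1.48e-05). TTC19, a factor of complex III, had 0.89 (adjusted p = 6.46e-05). SCO1 and COX11 of complex IV therefore differed in opposite directions, as NDUFAF4 and NDUFAF7 of complex I did.

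Of 11 measured enzymes of the citric acid cycle, which supplies NADH and succinate, 4 were higher and 0 lower in U-HO1 (36.4% and 0%). CS, citrate synthase, averaged 11.77 ± 0.10 in U-HO1 and 10.89 ± 0.39 in L-1236 (difference 0.88, adjusted p = 0.00225), and DLD and IDH3G had 0.53 and 0.39 (adjusted p = 0.00167 and 0.00462). Of 7 other donors of electrons to the chain, 1 was higher and 1 lower (14.3% each), near the shares of all probe sets. SQOR, which oxidises sulphide, had 1.00 (adjusted p = 0.000122), and PRODH, the proline dehydrogenase, had -0.36 (adjusted p = 0.00884). Of 12 regulators of mitochondrial gene expression, 1 was higher and 2 lower (8.33% and 16.7%), again near the shares of all probe sets. TFAM, which packages and transcribes mitochondrial DNA, averaged 8.60 ± 0.16 in U-HO1 and 7.78 ± 0.06 in L-1236 (difference 0.82, adjusted p = 7.24e-05). GABPA, the DNA-binding subunit of GABP, averaged 7.97 ± 0.18 in U-HO1 and 8.51 ± 0.15 in L-1236 (difference -0.54, adjusted p = 0.00447). None of the 10 neighbouring probe set numbers around that probe set named a gene of the same chromosome, and the other GABPA probe set, where all 10 did, gave -0.12 and was not called (adjusted p = 0.437). POLRMT, the mitochondrial RNA polymerase, had -0.41 (adjusted p = 0.0208). Of 8 hypoxia genes acting at mitochondria, 3 were higher and 2 lower (37.5% and 25%). EPAS1, which encodes a hypoxia-inducible factor, had -2.07 (adjusted p = 1.14e-07), and HIGD2A, a factor of supercomplexes, had 1.34 (adjusted p = 1.83e-06). HIGD1A had 0.60 (adjusted p = 0.000138). Its probe set also lay among numbers of another chromosome, and its other probe set gave 0.49 (adjusted p = 0.000852).

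The differences on arrays labelled control were also read by the chromosome the members lie on. Chromosome 19 holds 11 members, the most of any, and 0 were called there (limma also gave 0 at an unadjusted p under 0.05), while 6.12% of all named probe sets of that chromosome were higher and 16.6% lower in U-HO1. Chromosome 8 holds 5 members, of which CYC1, COX6C and NDUFB9 were higher, and 32.6% of the named probe sets of that chromosome were higher in U-HO1, more than of any other chromosome that holds a member. Both members on chromosome 9, NDUFB6 and NDUFA8, and both on chromosome 17 were higher, where the named probe sets were higher in 17.8% and 22.9%. Gene copy number was not measured here, and its part in these differences was not tested.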

How the data were processed

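The values analysed are the deposited table of 12 one-colour Affymetrix whole-transcript arrays. The authors processed it in R 2.8.1, per the submitters' processing notes, and the deposited values run from 3.86 to 13.99 and were read as log2. How background was corrected, arrays normalized and probes summarised is not given in the sources used here. No genome build is named. Sorted columns differed by up to 0.52, so arrays were not made identical in distribution. Fold sizes rest on the reading as log2, and the number of arrays limits the precision.

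Of 32321 probe sets, 19158 had 1 gene symbol in the platform annotation, 1388 had several and 11775 had none. Name stems found 91 genes on 98 probe sets. A further 3 probe sets of pseudogenes or non-coding RNAs were left out, and 10 with several symbols were not used, among them those of ATP5F1E, NDUFC2 and NDUFS5. Some other genes with these name stems were not analysed here. The members, gene lists and tests were chosen with earlier results of these data known, including the small positive shift of respiratory chain genes in L-1236.

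A linear model with 4 group means was fitted to all arrays jointly with lmFit and moderated with eBayes in limma 3.58.1 (R 4.3.3), which left 8 residual degrees of freedom. Benjamini-Hochberg adjustment ran across the whole table of probe sets. The fit was tested on simulated data with 200 changed probe sets. GATA3 was tested by an exact permutation test. Groups were compared as labelled: lines within each label, labels within each line, and the difference of these effects. Alternatives were quantile normalization, centring, leaving out dim probe sets, all probe sets of a gene, other fits (statmod 1.5.0 for array weights), a replicate block, the submitters' criteria (a false discovery rate up to 25% with changes of 1.5-fold or more) and leaving out arrays. Same-numbered arrays were checked for shared deviations from their group means. Between labels these correlated at -0.17, 0.06 and 0.32 in U-HO1 and at 0.17, -0.40 and -0.22 in L-1236, and between the lines at 0.05, -0.17 and 0.26 on arrays labelled control and at 0.14, 0.21 and 0.15 on those labelled knockdown. Only in the last set did every pair pass 0.1, a cut with no outside basis. Correlations of differently numbered arrays are not given for comparison, so these values cannot decide whether the numbers pair the arrays. The main fit treated all arrays as unpaired, in that set too. The replicate block was 1 alternative that used the numbers, and it was not limited to that set. Another probe set for 4 members, and for GABPA and HIGD1A, was added after seeing the data. Genes were named by rule: CYC1, COX8A and ATP5PB, in each complex up to 4 members with the smallest p per direction among those called, isoform pairs, 4 members per direction with the smallest p in each knockdown comparison, and up to 3 of each list. The other genes named, such as NDUFV1, NDUFS1, NDUFS8, NDUFAF3, SDHC, UQCR10 and COX7C, were chosen after their values were seen. Promoter sequences are from RefSeq, GRCh38.p14.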

Additional observations from a re-analysis of the deposited data

How the results depend on the processing

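On arrays labelled control, the count of members higher in U-HO1 was 29, between 22 and 32 when single arrays were left out, 17 without the 4 arrays whose GATA3 went against their label and 14 by the submitters' criteria. Of all 32321 probe sets, 4296 were higher in the main fit, 2833 without those 4 arrays and 2391 by the submitters' criteria. On arrays labelled knockdown the count of 20 was 35 with array weights, 12 without those 4 arrays and 8 by the submitters' criteria, and single arrays moved it between 16 and 24. The count over all probe sets moved too, from 3945 to 6040 with array weights, 2579 without those 4 arrays and 2132 by the submitters' criteria. The 5 members lower in U-HO1 there became 9 after quantile normalization, 12 with array weights, 2 by the submitters' criteria and 3 to 8 without single arrays. Over all probe sets 4039 were lower in the main fit, 4383 after quantile normalization, 5283 with array weights and 2170 by the submitters' criteria. The 4 arrays were picked by their GATA3 level, and why any of these counts moved was not tested. For the line difference on arrays labelled control, leaving out single arrays gave medians of 0.11 to 0.23 for complex I (0.094 after quantile normalization), 0.036 to 0.19 for complex III, 0.068 to 0.13 for complex IV (0.063 without the 4 arrays, 0.10 after centring, 0.36 without dim probe sets) and 0.21 to 0.33 for complex V. On arrays labelled knockdown the median of complex I was -0.0081 without the 4 arrays and that of complex IV was 0.21 without dim probe sets. For the knockdown comparison in L-1236, single arrays moved the medians of complexes I, III and V between 0.029 and 0.17, 0.0051 and 0.16, and -0.0077 and 0.18, and that of complex IV ran from 0.0046 to 0.12 without single arrays and was 0.11 after centring and 0.14 without dim probe sets, and that of complex II was 0.13 without the 4 arrays and 0.0039 to 0.11 without single arrays. In U-HO1 it ran from -0.058 to 0.0081 for complex IV (-0.040 without dim probe sets) and from -0.010 to 0.028 for complex V (-0.017 without the 4 arrays). Centring turned the sign of 2 uncalled L-1236 values, ATP5ME to 0.00090 and COX6A2 to 0.0046. Of the 32 calls on arrays labelled control, 14 were lost without the 4 arrays and 6 after quantile normalization. With the replicate block 31 members were higher and 3 lower on arrays labelled control, 21 higher and 5 lower on arrays labelled knockdown, and 0 were called in the knockdown comparisons. In all, 561 counts and medians and 727 values of named members were taken as kept. A count was kept within 1.5-fold of its main value, so counts of 22 or 32 beside 29 are among these. A median was kept within the spread of its complex's mean over the arrays compared. A named value was kept where it held its direction and side of the threshold. Against these, 21 medians moved past that spread, and 5 counts rose and 7 fell by more than 1.5-fold. Of the named values 8 lost their call and 2 turned. The totals say little about the line difference. No probe set of the whole array was called between the labels in any setting, so the 0 counts there were bound to stay.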
